A study of Mus musculus with 96 samples.

Results

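The proteasome family was examined 2 h after the onset of a stroke in mouse brain. Its members were chosen by name: every gene symbol beginning with Psma, Psmb, Psmc, Psmd, Psme, Psmf or Psmg, which gave 50 genes of 19505 named genes on the Clariom S Mouse array. Each of the 50 was read by 1 probe set. The choice among probe sets (the one with the highest mean signal) and the omission of 2 male mice with poor arrays rested on measured values, while the choice of the 50 genes rested on their names. Psmb5, a catalytic subunit of the core particle, was not analysed here. Psmc3ip, a partner of meiotic recombinases, and Psme3ip1, a partner of the activator Psme3, share the prefix but are neither subunits nor assembly factors.

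Male mice of 3 groups were compared. The diabetic mice were BKS-Leprdb/db/JOrlRj males aged 8-12 weeks, a line without functional leptin receptor signalling. The old mice were C57Bl/6j males aged 18 months, and the mice called male were C57Bl/6j males aged 8-12 weeks. In each group the middle cerebral artery was either occluded for 90 min with an intraluminal filament and reperfused for 30 min (MCAO), or the mice had sham surgery. After perfusion with saline, 1 coronal slice was divided into the right hemisphere, ipsilateral to the occlusion (IP), and the left, contralateral one (CL), and RNA of each was put on its own array. There were 8 diabetic MCAO and 4 diabetic sham mice, 8 old MCAO and 4 old sham mice, and 7 male MCAO and 3 male sham mice, 34 mice and 68 arrays in all. Values are log2 signals, and the measure throughout was the hemisphere difference, IP minus CL in the same mouse, so that a difference of 1 is a doubling. Signal levels were not set side by side between groups, because each group was normalized on its own and the male arrays lie lower on the scale. The diabetic mice differ from both other groups in strain as well as in metabolism, from the old mice also in age, and from the male mice also in the set of experiments, since the male mice were done apart from the other groups. These effects cannot be told apart.

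The proteasome is the protease that degrades most ubiquitin-tagged proteins of a cell. Its barrel-shaped core particle (20S) is built from rings of alpha and beta subunits, with the proteolytic sites on some of the beta subunits. A regulatory particle (19S) caps the barrel, and its base holds a ring of ATPases that unfold substrates. Its non-ATPase subunits, in the base and the lid, include those that bind ubiquitin chains and remove them. Dedicated chaperones put the core particle and the base together, and other activators can cap the barrel in place of the regulatory particle. In brain, as in other tissues, most subunits are made all the time, whereas the immunoproteasome subunits are induced by interferon.

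The arrays carried the signal of neural tissue: in the diabetic mice the synaptic genes Snap25 and Syt1 averaged 13.1 and 13.2, and the myelin gene Mbp 12.7. Immediate early genes, which neurons switch on within minutes of strong stimulation, served as a check on the hemisphere labels. The mean IP minus CL of 27 such genes lay between 0.138 and 1.87 in the 8 diabetic MCAO mice, against -0.128 to 0.176 in the 4 diabetic sham mice. In old mice it was -0.406 in MCAO mouse 8 and 0.173 in MCAO mouse 6, and it lay between 0.846 and 1.41 in the other 6 MCAO mice, against -0.423 to 0.043 in the sham mice. In male mice it was 0.458 to 1.52 in MCAO mice and -0.117 to 0.0815 in sham mice. The immediate early genes of old MCAO mouse 8 thus ran against its hemisphere labels, but its value lay inside the old sham range, in which sham mouse 2 had -0.423. Values without MCAO mouse 8 are given where a result rests on it. The lowest diabetic MCAO value, 0.138, was that of mouse 5 and lay inside the sham range, and the next lowest was 0.490. In the same mouse the median of all genes was 0.195 higher in IP than in CL, against -0.0495 to -0.00668 in the other 7 diabetic MCAO mice. Values without it are given in the same way.

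Over the 23 MCAO mice of the 3 groups, the proteasome genes lay close to zero. The pooled differences of the 50 genes ran between -0.17 for Psmd5 and 0.17 for Psme4, with a median of -0.004 against 0.001 for all genes, and 27 of the 50 were below zero against 49.7% of all genes. Every one of the 50 pooled 95% intervals lay within 0.5 of zero on the log2 scale, and the interval reached 0.09 to either side in the median gene. By limma, with Benjamini-Hochberg adjustment over all 19505 genes and a threshold of 0.05, none of the 50 passed in the pooled MCAO mice, where 3.49% of all genes did. At an unadjusted p under 0.05 there were 5 of the 50 (Psmd1, Psmd5, Psmd9 and Psme1 lower, Psme4 higher), against 16.9% of all genes. Without old MCAO mouse 8 the pooled call changed for Psmd5, which then passed at -0.21 with an adjusted p of 0.0248, and 1017 genes passed in place of 680. For comparison, 24 of the 27 immediate early genes passed in the pooled MCAO mice, with a median of 1.09.

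**Figure D1:**
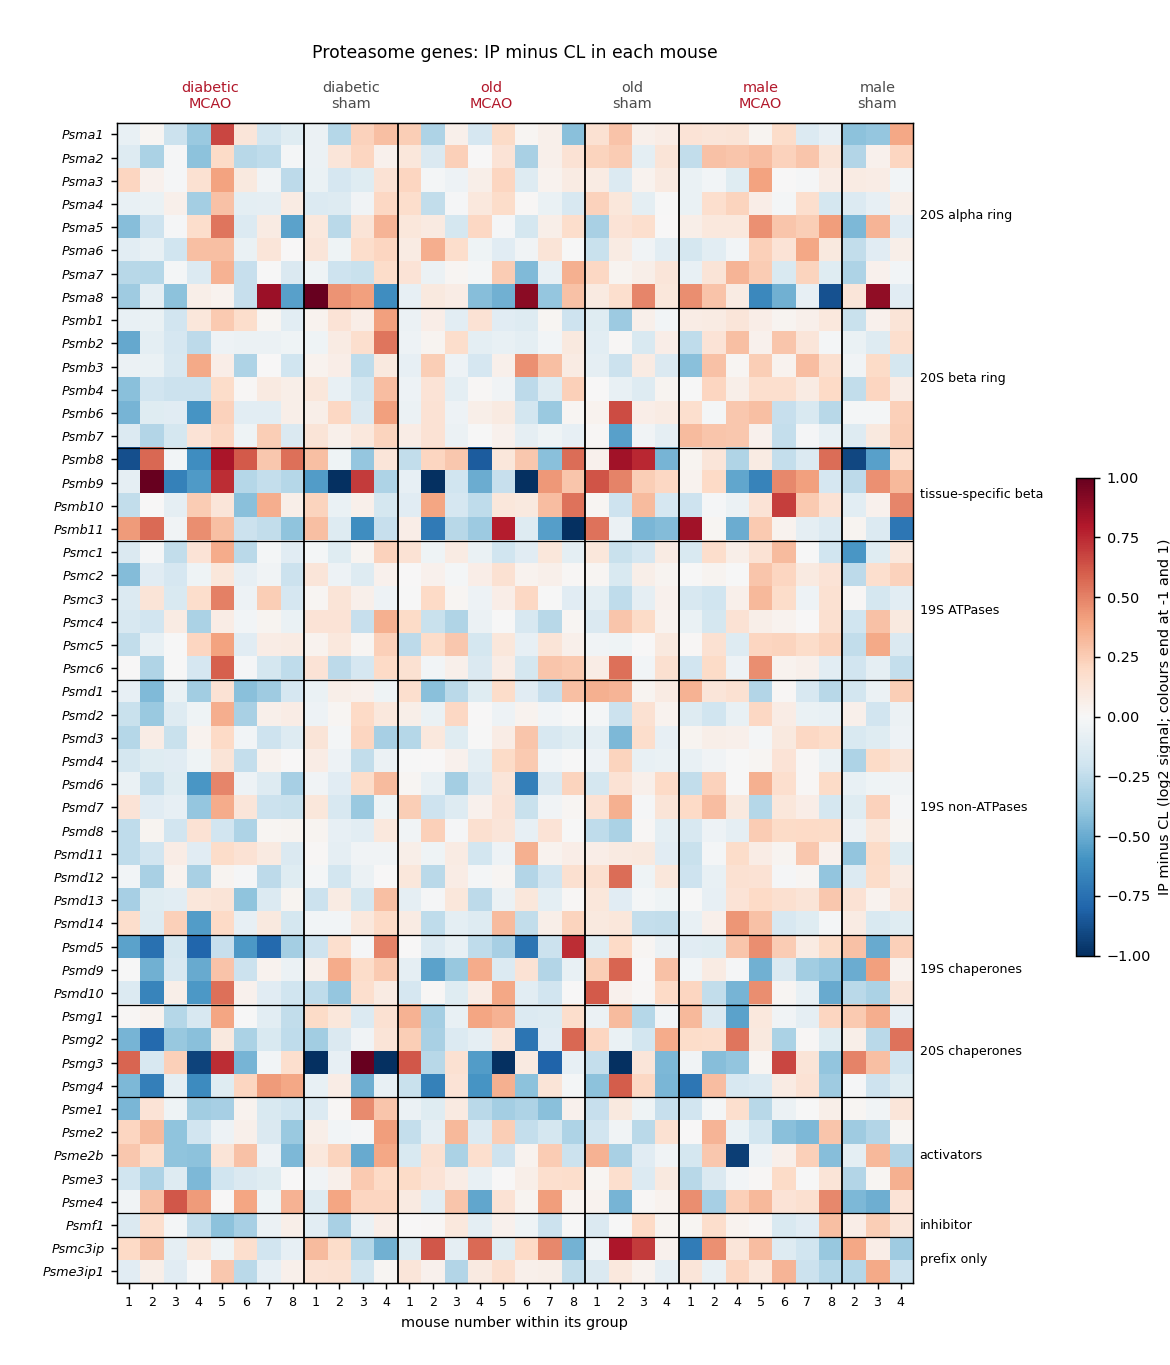
IP minus CL (log2 signal, colour) of the 50 proteasome genes (rows, ordered by role, where 20S names the core particle and 19S the regulatory particle) in each of the 34 mice (columns, by group and surgery). The row of Psmd5 is blue in all 8 diabetic MCAO mice, the column of diabetic MCAO mouse 5 is mostly red, and the strongest colours lie in rows of a few genes such as Psmb8, Psmb9, Psma8 and Psmg3 with no shared direction.

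The members varied less between mice than the median gene. The median SD of IP minus CL was 0.210 over the 50 genes in diabetic MCAO mice, against 0.347 over all genes, and 0.194 against 0.270 in diabetic sham mice. In old mice it was 0.180 (MCAO) and 0.171 (sham), against 0.303 and 0.272 over all genes. In male mice it was 0.198 (MCAO) and 0.235 (sham), against 0.292 and 0.260. In the MCAO fits 47 of the 50 differences lay within 0.25 of zero in diabetic mice (76.7% of all genes), 47 in old mice (90.9%) and 50 in male mice (91.7%). The intervals were wider than in the pooled fit, reaching 0.18, 0.16 and 0.20 to either side in the median gene of the diabetic, old and male fits. After adjustment over all genes larger differences than these also went uncalled, such as -0.33 for Psmg2 in diabetic mice (adjusted p 0.0685).

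Psmd5, a chaperone that helps to assemble the ATPase ring of the base, was the one member that passed the test within a group. In diabetic MCAO mice its signal had a lowest, median and highest value of 8.40, 8.71 and 9.27 in the IP hemispheres, against 8.76, 9.33 and 9.48 in the CL hemispheres. In diabetic sham mice it was 9.07, 9.45, 9.38 and 9.26 in IP and 9.27, 9.28, 9.40 and 8.77 in CL (mice 1 to 4). The mean was 8.76 ± 0.30 in IP and 9.28 ± 0.23 in CL of the MCAO mice (SD, n = 8). The 2 sets of signals overlapped, but IP was lower in 8 of 8 mice, with differences between -0.79 and -0.17 and a median of -0.55. The 4 sham mice had differences of -0.21, 0.17, -0.01 and 0.49. One sham mouse thus fell inside the range of the MCAO mice and 3 lay above it. The fitted difference was -0.52 (SE 0.097, 95% interval -0.73 to -0.31), an IP signal 0.696 times that of CL, with an adjusted p of 0.0202 (limma, Benjamini-Hochberg). In that comparison 2.29% of all genes passed, and 1.25% passed as lower in IP, which makes 1 of 50 members close to the background rate. The call was lost in fits without diabetic MCAO mouse 2, 4, 6 or 7, where the adjusted p reached 0.0617, and the difference itself stayed between -0.57 and -0.48 with any 1 mouse of the fit left out.

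**Figure D2:**
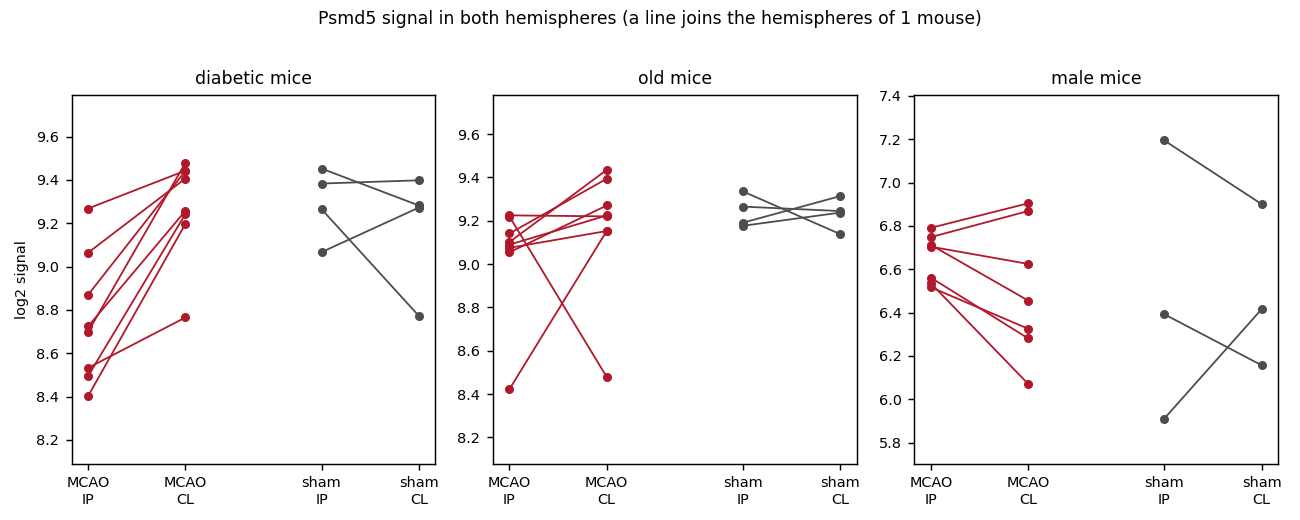
Psmd5 log2 signal in the IP and CL hemispheres of each MCAO and sham mouse, with a line joining the 2 hemispheres of a mouse and each panel on the scale of its own group. All 8 lines of the diabetic MCAO mice rise between IP and CL, while lines of both slopes appear in old MCAO, male MCAO and all sham mice.

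Set against sham surgery, the same gene gave a difference of the same size with a wider interval. MCAO minus sham of the hemisphere difference was -0.63 in diabetic mice (95% interval -0.99 to -0.27), with an unadjusted p of 0.00224 and an adjusted p of 0.334 (limma). In the IP arrays alone Psmd5 was -0.54 in MCAO minus sham mice (adjusted p 0.216), and in the CL arrays alone it was 0.10 (adjusted p 0.999).

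In old mice Psmd5 signals in IP had a lowest, median and highest value of 8.42, 9.10 and 9.22 after MCAO, against 8.48, 9.22 and 9.43 in CL. The differences ran between -0.73 (mouse 6) and 0.74 (mouse 8), and 6 of 8 mice were below zero. The 4 old sham mice had -0.12, 0.20, 0.02 and -0.06. The mean over the old MCAO mice was -0.12 with an adjusted p of 0.879. Without mouse 8 it was -0.25 with an unadjusted p of 0.0123 and an adjusted p of 0.371 (limma), so the value in old mice depended on the mouse whose immediate early genes ran against its labels.

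In male MCAO mice Psmd5 had IP signals of 6.52, 6.70 and 6.79 (lowest, median, highest), against CL signals of 6.07, 6.46 and 6.90. The differences ran between -0.12 and 0.46, and 5 of 7 mice were above zero. The 3 male sham mice had 0.29, -0.50 and 0.24, so the 2 sets overlapped, with 1 MCAO mouse above and 1 sham mouse below the other set. The male mean was 0.15 with an adjusted p of 0.857.

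The groups were then compared with one another by a test of the difference between their MCAO hemisphere differences. Psmd5 was lower in diabetic than in male MCAO mice by a difference of -0.67 (95% interval -0.99 to -0.35, adjusted p 0.0421, limma). All 8 diabetic values lay below all 7 male values. In this comparison 0.620% of all genes passed, 0.415% as lower in diabetic mice, and Psmd5 was 1 of 50 members. The call is near its threshold: it was lost when the hemispheres were tested without the mouse as a block (adjusted p 0.155) and in 11 of 22 fits that left out 1 mouse. Diabetic minus old was -0.40 for Psmd5 (95% interval -0.71 to -0.09, adjusted p 0.256), and old minus male was not called for any member. These comparisons share the diabetic or the male mice, so they do not support one another.

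Psmg2, a chaperone that pairs with Psmg1 to start the alpha ring, came next in diabetic mice. Its IP minus CL ran between -0.78 and 0.10 with a median of -0.34, and it was below zero in 7 of 8 MCAO mice, the exception being mouse 5. The sham mice had -0.35, -0.14, -0.03 and 0.13, of which 3 lie inside that range and 1 above it. The fitted difference was -0.33 (95% interval -0.53 to -0.14, adjusted p 0.0685), and without mouse 5 it was -0.39 with an adjusted p of 0.0373. In old MCAO mice Psmg2 ran between -0.73 and 0.57 with no common direction, and those extremes were again mice 6 and 8.

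Psmd1, the large scaffold subunit of the base, had differences between -0.44 and 0.14 in diabetic MCAO mice with a median of -0.26, and 7 of 8 were below zero. The sham mice stayed within -0.07 and 0.06. The fitted difference was -0.22 with an adjusted p of 0.131, which misses the threshold. The one value above zero was that of mouse 5. Without that mouse the Psmd1 difference was -0.27 with an adjusted p of 0.0650 (limma), which misses it as well. Psme3, the nuclear activator known as PA28 gamma, averaged -0.19 in diabetic MCAO mice, with an adjusted p of 0.131 as well. It differed by -0.28 between diabetic and old MCAO mice (adjusted p 0.165). Psme4, the activator PA200, was the one member with an unadjusted p under 0.05 and a positive value in diabetic MCAO mice, where it averaged 0.25 (adjusted p 0.138). Its 8 values ran between -0.04 and 0.62, and the sham mice had -0.13, 0.39, 0.22 and 0.21, so that sham mice covered most of that range. Psmb2, a structural beta subunit, was below zero in 8 of 8 diabetic MCAO mice, with a mean of -0.16 and an adjusted p of 0.284. Psmd5 and Psmb2 were thus 2 of 50 members that were lower in all 8 mice, and 2.91% of all genes were. In all, 5 of the 50 members had an unadjusted p under 0.05 in diabetic MCAO mice, against 21.0% of all genes. At an adjusted p under 0.25, the threshold of the study's methods, the same 5 passed, against 22.2% of all genes. The count at an unadjusted p under 0.05 rested on mouse 5. Without that mouse it was 11 of 50 (10 lower, 1 higher), against 21.4% of all genes.

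The family as a whole sat slightly low in diabetic MCAO mice. Of the 50 genes, 38 were below zero with a median of -0.07, against 46.3% of all genes and a median of 0.02. The median over the members was below zero in 7 of the 8 mice, between -0.180 and -0.0445. It was 0.197 in mouse 5, in which the median difference of all genes was nearly the same, 0.195. The CL array of mouse 5 had a low median signal, 6.66, against 6.88 to 6.97 in the other 7 mice. Its IP array had 6.81, against 6.84 to 6.92. Without mouse 5, 44 of 50 were below zero, with a median of -0.10 against -0.01 for all genes. The member median of the 4 diabetic sham mice lay between -0.0258 and 0.151. With differences corrected by lowess on the mean signal the member median was -0.04 and 34 were below zero. Other large families of steadily expressed genes were set beside the proteasome. The 97 nuclear genes of the respiratory chain had a median of -0.10 and the 76 mitochondrial ribosomal protein genes -0.11 in diabetic MCAO mice, while the 74 cytosolic ribosomal protein genes had 0.03. Both mitochondrial families thus had lower medians than the proteasome genes.

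**Figure D3:**
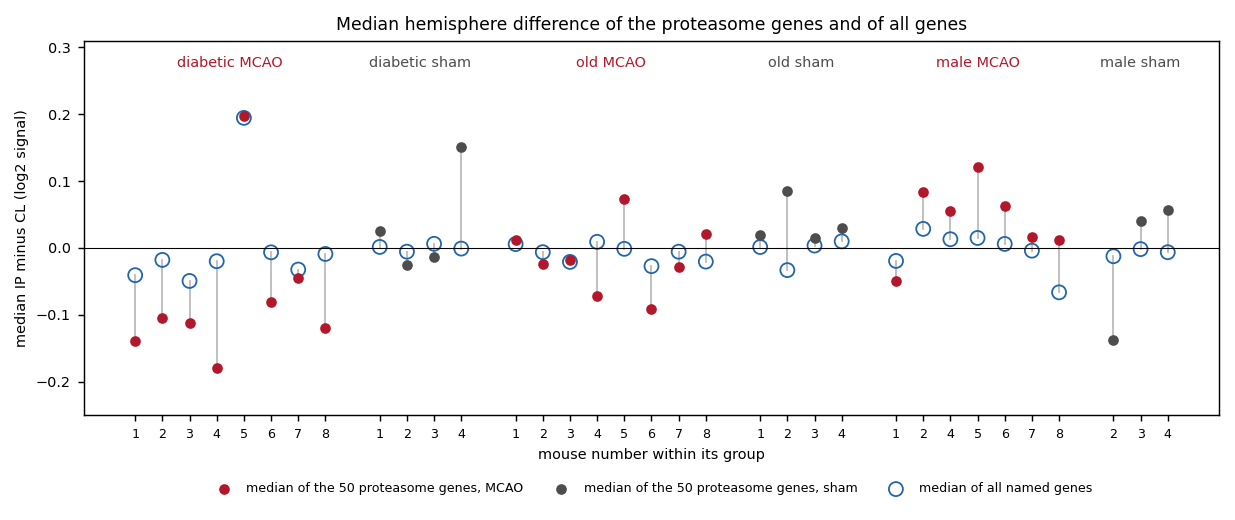
Median IP minus CL (log2 signal) over the 50 proteasome genes in each MCAO and sham mouse (filled points) and over all named genes in the same mouse (open circles). In diabetic MCAO mice 7 of 8 filled points lie below zero and below the open circle, and mouse 5 stands at 0.197 with both points together.

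Cell type markers moved in the same diabetic MCAO mice. Of 7 neutrophil markers 3 passed the test as higher in IP, and 5 had a mean above zero. The mean difference of the list was 0.61 ± 0.34 (SD, n = 8), against 0.09 ± 0.43 in sham mice (n = 4). The mean level of the list ran between 4.40 and 5.48 in IP and between 4.24 and 4.69 in CL of the MCAO mice. Of 13 neuron markers 2 passed the test as lower, and 10 had a mean below zero. The mean difference of these markers was -0.14 ± 0.10 in MCAO mice and 0.00 ± 0.04 in sham mice. Their level was 11.25 to 11.60 in IP and 11.50 to 11.71 in CL. The 7 oligodendrocyte markers averaged 0.26 ± 0.25 with none passing the test, and none of 7 microglial markers passed. Of 8 endothelial markers 1 passed as higher, and 7 had a mean above zero. The endothelial list averaged 0.17 ± 0.17 in MCAO mice and 0.06 ± 0.14 in sham mice. The microglial markers averaged -0.13 ± 0.20 in MCAO mice, above zero in 1 of 8. In sham mice they averaged 0.09 ± 0.08, above zero in 4 of 4. Lists of astrocyte (8 genes), cortical neuron (9), striatal neuron (8), red blood cell (2) and choroid plexus (6) markers had no gene that passed. The red blood cell markers averaged 0.44 ± 0.36 in diabetic MCAO mice, above zero in 8 of 8, and -0.03 ± 0.34 in sham mice. Of the 10 lists, choroid plexus markers varied most between the diabetic MCAO mice: their mean difference ran between -1.94 and 2.60 in diabetic MCAO mice and between -0.54 and 0.21 in sham mice, and their level between 5.76 and 10.39 over the IP arrays and between 6.11 and 10.09 over the CL arrays of the MCAO mice. In old MCAO mice that difference ran between -1.61 and 1.12, against -2.42 to 0.19 in old sham mice. In male MCAO mice it ran between -0.36 and 0.17, against -0.17 to 0.36 in male sham mice. In old and male MCAO mice no gene of any of the 10 lists passed. The part of these shifts in the values of the proteasome genes was not tested, and in tissue RNA fewer cells of a type and less RNA per cell cannot be told apart.

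In old MCAO mice the proteasome genes showed no shift as a family. There were 31 members below zero with a median of -0.01, against 52.8% of all genes and a median of -0.01. No member passed the test (limma), and neither did any other gene, so the background was 0% here. At an unadjusted p under 0.05 there was 1 of 50 members, Psme1, against 7.11% of all genes. Without mouse 8 there were 31 genes that passed, none of them a member, and 3 members (Psmd5, Psme1 and Psmb9, all lower) with an unadjusted p under 0.05, against 9.36% of all genes.

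Psme1, the interferon-inducible activator subunit PA28 alpha, had differences between -0.42 and 0.09 in old MCAO mice with a median of -0.19, and 6 of 8 mice were below zero. The old sham mice had -0.23, 0.10, -0.04 and -0.23, of which 3 lie inside that range and 1 just above it. The fitted value was -0.17 with an adjusted p of 0.632. Diabetic MCAO mice gave the same mean, -0.17, with values between -0.45 and 0.13, against -0.13, 0.01, 0.47 and 0.28 in diabetic sham mice. Male MCAO mice averaged -0.05. Over the 23 MCAO mice Psme1 was lower in 17, with a mean of -0.13 (95% interval -0.22 to -0.04, adjusted p 0.0858), and it was lower in 5 of 11 sham mice. Its pathway partner Psme2 did not pass either, and Psme2b is a near copy of Psme2, so the signals of those 2 genes may not be separate.

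Psmb9 and Psmb11 had lower means than Psme1 in old MCAO mice and a wider spread. Psmb9, an immunoproteasome subunit, ran between -1.08 and 0.43 in MCAO mice (mean -0.31, adjusted p 0.75), while the old sham mice had 0.63, 0.49, 0.25 and 0.21. Of the 8 MCAO mice 2 were above zero, against all 4 sham mice. Psmb11, the subunit of the thymus, ran between -1.26 and 0.78 (mean -0.31, adjusted p 0.786), against 0.54, -0.06, -0.46 and -0.43 in sham mice. Without MCAO mouse 8 the means were -0.39 for Psmb9 (adjusted p 0.474) and -0.17 for Psmb11 (adjusted p 0.81), so the value of Psmb11 rested in large part on that mouse. Both had low signals on these arrays, with medians of 4.93 and 4.51 in the IP hemispheres of old MCAO mice.

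In male MCAO mice the family lay slightly above zero. Only 16 of 50 members were below zero, with a median of 0.05, against 51.0% of all genes and a median of -0.003. No member passed the test, where 0.159% of all genes did, and 1 of 50 had an unadjusted p under 0.05, against 7.16%. That gene was Psma5, an alpha ring subunit. Its differences were 0.06, 0.25 and 0.46 (lowest, median, highest) and were above zero in 7 of 7 MCAO mice, against -0.45, 0.34 and -0.11 in sham mice. The fitted value was 0.24 (95% interval 0.03 to 0.45, adjusted p 0.631). Psmb1, a beta subunit, was also above zero in 7 of 7 mice but by a mean of 0.07 with an SD of 0.03 (adjusted p 0.911), and 1.28% of all genes were higher in all 7 male mice. Psma2, another alpha subunit, was above zero in 6 of 7 mice with values up to 0.31 and 1 value of -0.24 (mean 0.18, adjusted p 0.747), and the sham mice had -0.30, 0.04 and 0.22. The member median was above zero in 6 of 7 male MCAO mice, between -0.050 and 0.121 over the 7, and was -0.138, 0.041 and 0.056 in the 3 sham mice.

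Psme4 had the highest pooled value of the family. It was above zero in 18 of 23 MCAO mice and in 7 of 11 sham mice, with a pooled MCAO mean of 0.17 (adjusted p 0.0941). Within groups the MCAO mean was 0.25 in diabetic, 0.05 in old and 0.21 in male mice. Single mice went the other way in each group, down to -0.52 in old MCAO mouse 4 and -0.33 in male MCAO mouse 2, and without either of those mice the pooled difference passed the test (adjusted p 0.0388 and 0.0384). Both of those mice had values opposite in sign to the pooled mean. Only these 2 of the 34 fits without 1 mouse passed, and the adjusted p reached 0.166 (limma). Pooled MCAO minus sham was 0.23 with an adjusted p of 0.466.

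Psmd9, another chaperone of the base, showed opposite signs in MCAO and sham mice. It was below zero in 18 of 23 MCAO mice (mean -0.15, adjusted p 0.146) and above zero in 10 of 11 sham mice (mean 0.16). The MCAO values ran between -0.50 and 0.29 in diabetic, -0.53 and 0.37 in old and -0.48 and 0.08 in male mice, with medians of -0.11, -0.11 and -0.15. The sham values were 0.05, 0.37, 0.18 and 0.26 in diabetic mice, 0.25, 0.58, 0.01 and 0.29 in old mice, and -0.50, 0.41 and 0.03 in male mice. MCAO minus sham was -0.31 over the 3 groups (95% interval -0.51 to -0.11) with an adjusted p of 0.270, so the difference did not pass over all genes.

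**Figure D4:**
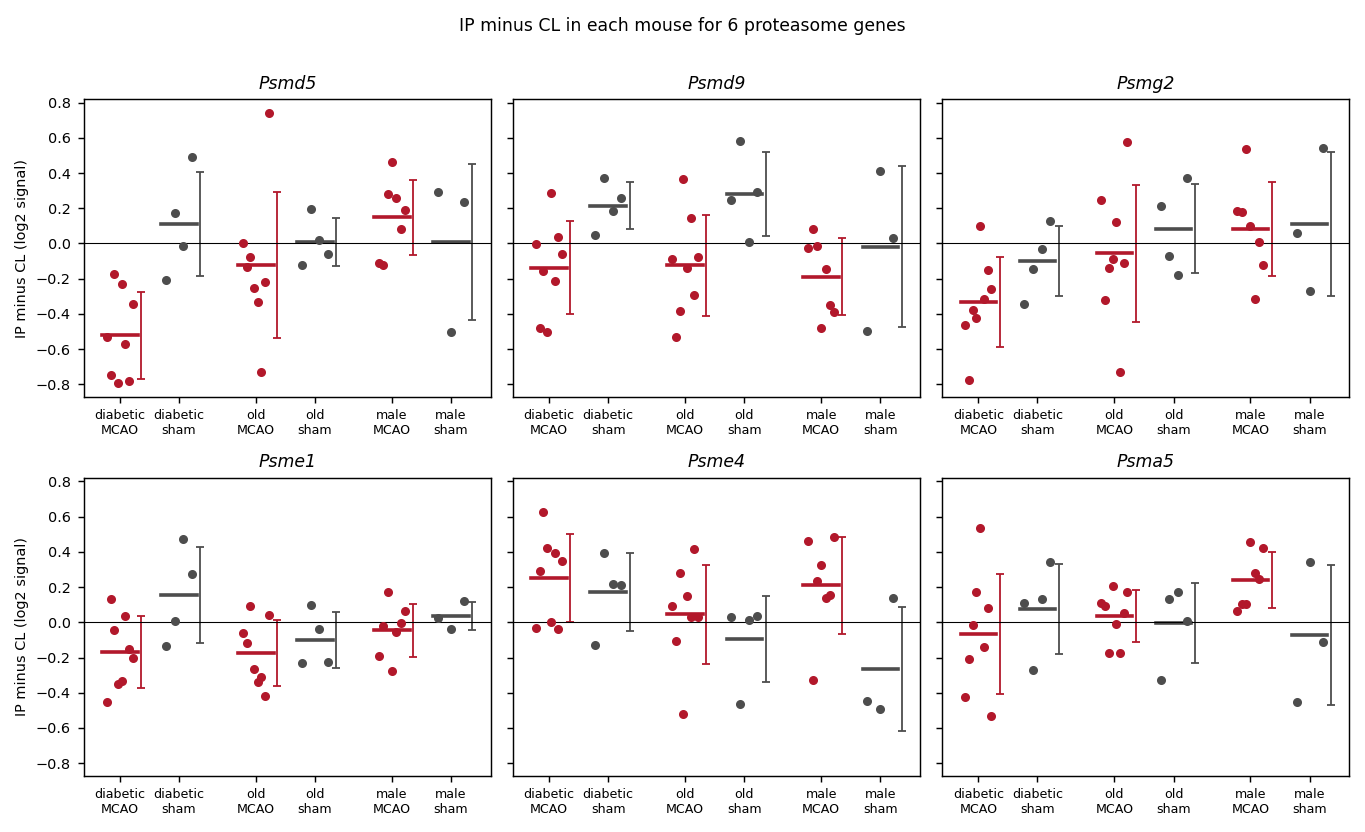
IP minus CL (log2 signal) in each MCAO mouse (red) and sham mouse (grey) for 6 proteasome genes, with the mean as a bar and the SD as an error bar beside the points. All 8 diabetic MCAO points of Psmd5 lie below zero, all 7 male MCAO points of Psma5 lie above it, and 10 of the 11 sham points of Psmd9 lie above it.

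By role, the chaperones of the regulatory particle had the lowest pooled median (-0.15 over 3 genes, Psmd5 at -0.17 to Psmd10 at -0.08), followed by the 4 chaperones of the core particle (-0.10, Psmg4 at -0.13 to Psmg1 at 0.00). The 5 activators had a median of -0.07 and held the widest range, Psme1 at -0.13 to Psme4 at 0.17. The structural parts were flat. The 8 alpha subunits had a median of 0.01 (Psma8, of the testis, at -0.09 to Psma5 at 0.07) and the 6 beta subunits 0.01 (Psmb6, a catalytic subunit, at -0.06 to Psmb3 at 0.05). The 4 immunoproteasome and thymoproteasome subunits had 0.01 (Psmb9 at -0.11 to Psmb10 at 0.09), the 6 ATPases 0.02 (Psmc4 at -0.05 to Psmc5 at 0.07) and the 11 non-ATPase subunits -0.01 (Psmd1 at -0.10 to Psmd11 at 0.02). The inhibitor Psmf1 was at -0.04, Psme3ip1 at 0.00 and Psmc3ip at 0.03.

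The direction of the structural parts differed between groups in value, though not by a test over the list. All 11 non-ATPase subunits were below zero in diabetic MCAO mice, from -0.22 for Psmd1 to -0.03 for Psmd11, with a median of -0.07. In male MCAO mice all 6 beta subunits were above zero, with a median of 0.08, and so were all 6 ATPases, between 0.02 and 0.12. The alpha subunits had medians of -0.05 in diabetic and 0.07 in male MCAO mice. The regulatory particle chaperones were at -0.14 in diabetic and -0.08 in male MCAO mice. Over the whole family diabetic minus male had a median of -0.08 with 38 of 50 members below zero, against 0.02 and 47.2% for all genes. Diabetic minus old had a median of -0.05 with 35 below zero, against 0.01 and 47.4% for all genes. Old minus male had a median of -0.06 with 37 below zero, against -0.01 and 51.5% for all genes.

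**Figure D5:**
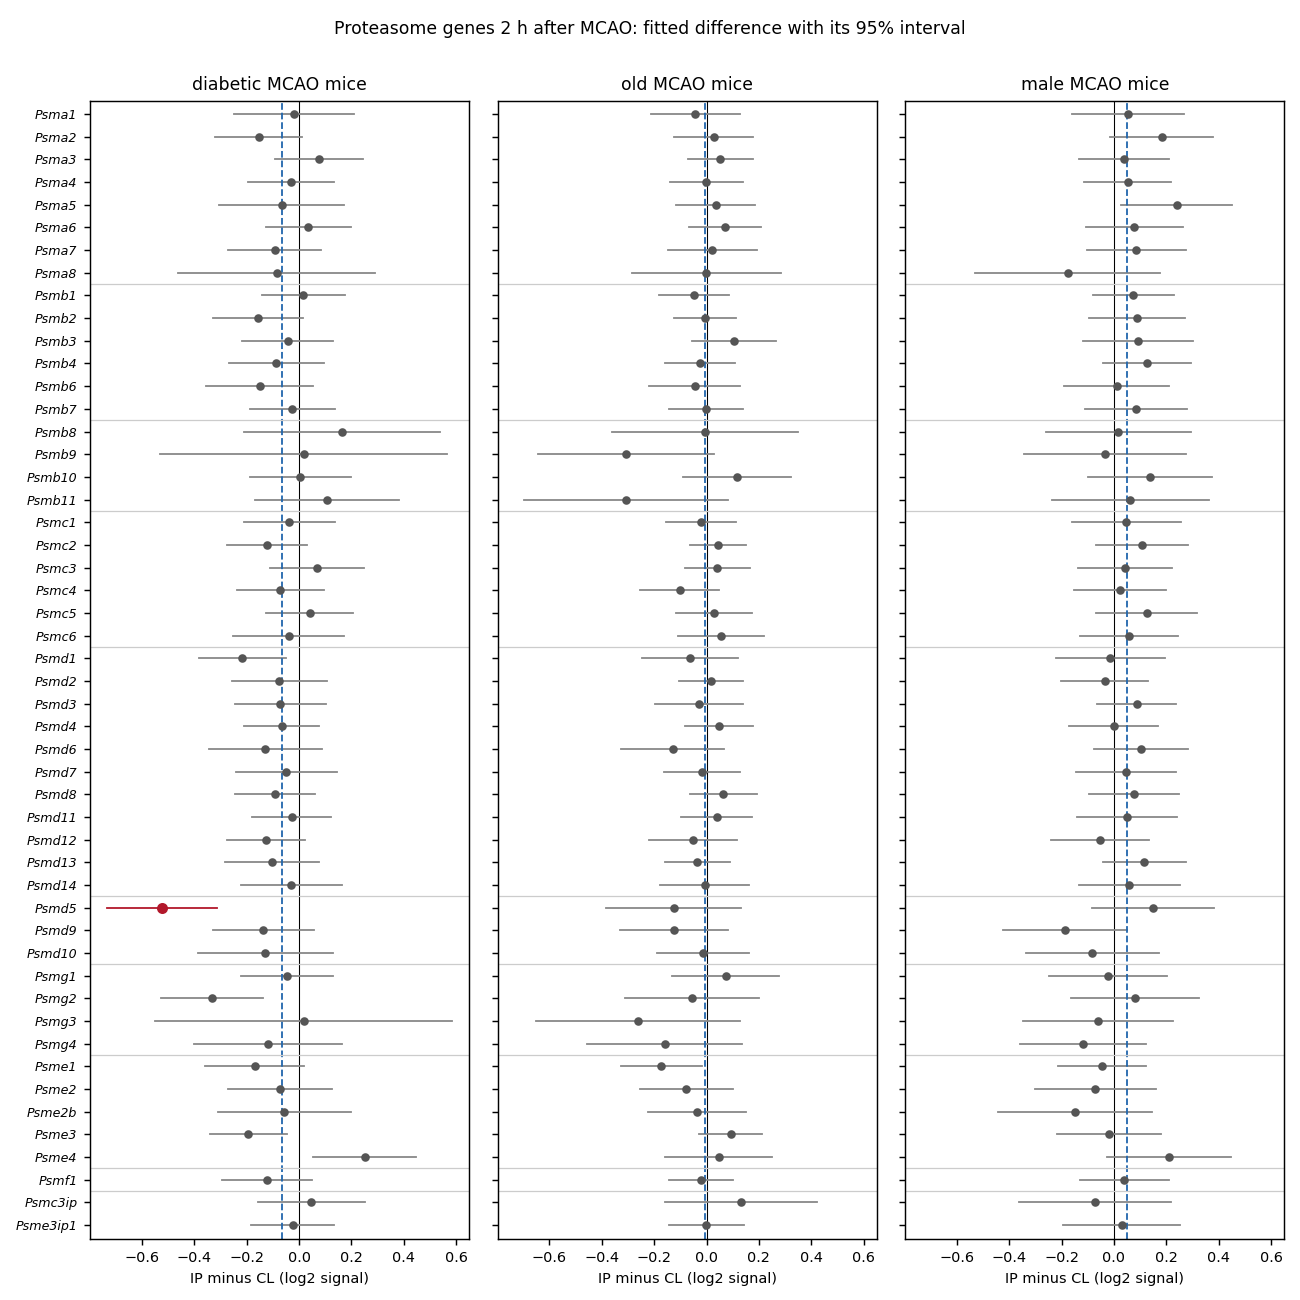
Fitted IP minus CL (log2 signal) of each proteasome gene in diabetic, old and male MCAO mice, with 95% intervals, a solid line at zero and a dashed line at the median of the 50 genes. The interval of Psmd5 in diabetic mice (red, -0.73 to -0.31) lies apart from zero by more than any other, and most other intervals cross zero.

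Sham surgery gave the background of the measure. No member passed in the sham mice of any group by limma, and no gene at all did (0% in diabetic, old, male and pooled sham mice). At an unadjusted p under 0.05 there were 0 members in diabetic sham mice (3.14% of all genes), 0 in old (5.43%), 1 in male (Psmb8, an immunoproteasome subunit, lower; 5.35%) and 0 in pooled sham mice (4.34%). Psmb8 had low signals in the male sham arrays, between 3.18 and 4.21. The pooled sham median of the members was 0.01, with 23 of 50 below zero, against -0.003 and 51.4% for all genes.

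Tests of MCAO minus sham on the hemisphere difference called no member. The share of all genes called was 0% in each group and 0.169% over the 3 groups. At an unadjusted p under 0.05 there were 4 members in diabetic mice, all lower (Psmb2, Psmd5, Psmd9 and Psme3, against 9.80% of all genes). There were 3 in old mice (Psmb9 and Psmd9 lower, Psmd8, a lid subunit, higher, against 5.92%), 1 in male mice (Psme4, against 5.93%) and 5 in the pooled mice (Psma8, Psmb6, Psmd9, Psme1 and Psme4, against 9.17%). Psma8 had low signals, between 3.32 and 4.65 in diabetic arrays and between 2.00 and 3.39 in male arrays.

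The hemispheres were also compared one at a time between MCAO and sham mice. In IP arrays no member passed in diabetic, old or male mice, where 0.272%, 0.0718% and 0.205% of all genes did, and in CL arrays no gene passed in any group (0%). At an unadjusted p under 0.05 the diabetic IP arrays had 12 of the 50 members, against 13.6% of all genes: 11 were lower in MCAO mice (Psmb2, Psmb3, Psmb6, Psmb7, Psmc2, Psmd1, Psmd5, Psmd8, Psmd9, Psme2 and Psme3) and Psme4 was higher. The diabetic CL arrays had 0 (4.35% of all genes). In these IP arrays 43 of 50 members were below zero (55.3% of all genes), with a median of -0.16 against -0.03 for all genes. In the CL arrays 33 were below zero (60.2% of all genes), with a median of -0.04 against -0.03 for all genes. Old mice had 0 members in IP arrays (7.32%) and 1 in CL arrays (Psma1, 4.93%). Male mice had 3 in IP arrays, all higher (Psmb10, Psmd6 and Psme2, 7.37%), and 0 in CL arrays (4.63%). In male IP arrays 9 of 50 members were below zero and the median was 0.09, against 46.4% of all genes and a median of 0.02.

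At the same unadjusted threshold 3 members differed between diabetic and old MCAO mice (Psmc2, Psmd5 and Psme3, against 12.9% of all genes), 8 were lower in diabetic than in male mice (against 14.8%), and 0 differed between old and male mice (3.69%). Of all genes, 0.0461% passed in diabetic minus old and 0% in old minus male. At an adjusted p under 0.25 there were 6 members in diabetic minus male, all lower (Psmd5, Psma2, Psmc2, Psmg2, Psmb2 and Psmd13, against 9.35% of all genes), 3 in diabetic IP arrays between MCAO and sham mice, all lower (Psmd5, Psmd9 and Psme3, against 3.80%), 1 in diabetic minus old (Psme3, lower, against 5.15%), and 4 in the pooled MCAO mice (Psme1, Psmd9 and Psmd5 lower, Psme4 higher, against 14.3%). Psma2 differed by -0.34 between diabetic and male MCAO mice (adjusted p 0.117).

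The promoters of these genes were searched for 4 motifs, on both strands, in the window from 250 bases before to 50 bases after the gene start in RefSeq (GRCm38.p6). The table held 42 of the 50 members. Not searched were Psma8, Psmb1, Psmb2, Psmb7, Psmc3, Psmd3, Psmd7 and Psmg2. The antioxidant response element TGACNNNGC, through which the factor Nfe2l1 raises subunit genes when the proteasome is inhibited, was found in 5 of 42 (11.9%: Psmd9, Psme4, Psmb6, Psmd12 and Psmc6), against 13.99% of 27025 genes. CCAAT was found in 16 (38.1% against 41.1%), the GC box GGGCGG in 24 (57.1% against 38.2%) and the Ets-type motif CCGGAAGT in 9 (21.4% against 4.31%). The motifs can overlap, and a match is a string of letters in the window, not a measured site. Stretches of 30 bases are shown for Psmd5, Psmd9, Psme4 and Psme1, which are among the members named above, with the motif in capitals. Psmd5, on chromosome 2 at 34852087-34870965 on the minus strand, held 2 GC boxes and is shown with both, at chr2:34871042-34871071 and chr2:34871100-34871129. Psmd9 is shown with its antioxidant response element at chr5:123228149-123228178, Psme4 with its Ets-type motif at chr11:30771711-30771740 and Psme1 with a GC box at chr14:55578373-55578402, all 3 on the plus strand.
Psmd5, GC box nearer the start: ccccaaagaaagGGGCGGggaccgcgttga
Psmd5, GC box farther from the start: tcttgatcccctGGGCGGtctcagtctctt
Psmd9, antioxidant response element: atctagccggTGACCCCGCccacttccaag
Psme4, Ets-type motif: gtggccccgccCCGGAAGTgacttgaggcc
Psme1, GC box: gacccgagcgccGGGCGGaaacgctactcc
The capitals of Psmd9 and Psme4 overlap a GC box read on the other strand. The gene with the called difference, Psmd5, held no antioxidant response element in its window.

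Genes that work with the proteasome were read from lists of other subunits and bound factors, of ubiquitin activation and shuttling, and of the Nfe2l1 pathway. Of 11 measured genes in the list of other subunits and bound factors, 1 passed the test as lower in diabetic MCAO mice and none in old or male mice. Of all genes, 1.25% passed as lower in diabetic MCAO mice. The gene of the list was Zfand2a, an arsenite-inducible protein that binds the proteasome, at -0.56 (adjusted p 0.0209, limma). It was also lower in diabetic than in male MCAO mice (-0.72, adjusted p 0.0272). The medians of that list were -0.04 in diabetic, 0.01 in old and 0.05 in male MCAO mice. Of 17 genes of ubiquitin activation and shuttling none passed within any group, with differences between -0.34 (Vcp, the segregase that pulls tagged proteins apart) and 0.28 in diabetic mice. Uchl1, a neuronal deubiquitinase, was lower in diabetic than in male MCAO mice (-0.39, adjusted p 0.0272, limma). In that comparison 0.415% of all genes passed as lower.

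Of 9 measured genes of the Nfe2l1 pathway 1 passed the test as higher in diabetic MCAO mice, where 2.29% of all genes passed in either direction. Maff, a small Maf protein that is also an early stress gene, reached 0.97 (adjusted p 0.0272), and 0.64 in the pooled MCAO mice (adjusted p 0.0004). Nfe2l1 itself had values of 0.02, 0.02 and -0.03 in diabetic, old and male MCAO mice. The 4 ubiquitin genes were not analysed here.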

How the data were processed

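The deposited values were log2 signals that the authors made with Robust Multiarray Average in the Affymetrix Expression Console, each group on its own. No further normalization was applied. Of 29129 probe sets, 19572 carried 1 symbol and 9557 none. In the diabetic and old arrays 8800 rows (27 members) lay 3 rows late and were moved back: the correlation with the male means over those rows was 0.169 and 0.170 as deposited and 0.975 and 0.977 moved. Female arrays were not used, since their hemisphere labels are in doubt, and 2 male mice with poor arrays (MCAO number 3, sham number 1) were omitted.

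IP minus CL per mouse, which is the model with the mouse as a block, was fitted with limma 3.58.1 in R 4.3.3 with MCAO and sham means of 1 group, or of all 3 groups for pooled and between-group tests, in which the pooled mean weighs the 3 groups equally, and p-values were adjusted by Benjamini-Hochberg over 19505 genes. The labels give both hemispheres of a mouse the same number. Across genes the deviations of the 2 arrays of a mouse from their means correlated with medians of 0.0823 to 0.176 over the 6 groups of mice, against -0.113 to -0.0182 between mice. Intervals are 95%. The number of arrays limits the precision, and no depth applies.

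The members and lists were chosen with earlier results of these data known. Per-mouse values are given for the 3 members with the smallest p in each group's MCAO fit and in the pooled fit. Within each role the highest and the lowest pooled member are named. Members called between groups or against sham, where 10 or fewer, and called genes of the pathway lists are also named. Other members named were chosen after their values were seen. The fits were tested on simulated data.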

Additional observations from a re-analysis of the deposited data

Results flagged for a closer look

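Of 55 sets of values tested for a mouse standing apart from its group, 4 had one, and chance flags about 1 in 20 such groups. The median over the 50 proteasome genes was 0.197 in diabetic MCAO mouse 5, against -0.180 to -0.0445 in the other 7. Psme4 was -0.461 in old sham mouse 2, against 0.0104 to 0.0333 in the other 3, and -0.330 in male MCAO mouse 2, against 0.138 to 0.483 in the other 6. Psma2 was -0.244 in male MCAO mouse 1, against 0.129 to 0.308 in the other 6. The hemisphere difference of Psmd5 differed between diabetic and male MCAO mice by -0.670, by the test of the difference itself (adjusted p 0.0421, limma).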

How the results depend on the processing

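The count of members called was 1 in diabetic MCAO mice, 0 in the pooled mice and 1 in diabetic minus male. In diabetic MCAO mice it was 2 with a filter on the mean signal, with differences centred on the median or with lowess correction (Psmd5 and Psmg2), and 0 with a filter on the standard deviation (which kept 2 of the 50 members and dropped Psmd5), with a trended robust variance (Psmd5 -0.52, adjusted p 0.0537) or with 1 surgery in the fit (-0.52, 0.0564). At an adjusted p under 0.25 the counts were 5 in diabetic MCAO mice (22.2% of all genes), 3 in diabetic IP arrays (3.80%), 4 in the pooled mice (14.3%), 1 in diabetic minus old (5.15%) and 6 in diabetic minus male (9.35%). The pooled count was 2 with the mean filter (Psme1 and Psme4). In diabetic MCAO mice the mean filter also raised the count over all genes, which is given below. For the centred, lowess and pooled mean filter settings the share of all genes is not given here. Those counts are therefore not set against a background. Without the replicate block diabetic minus male had 0 calls (Psmd5 -0.67, adjusted p 0.155), and with male MCAO mouse 3 and sham mouse 1 kept in also 0 (Psmd5 -0.78, adjusted p 0.0587). With rows as deposited the names Psme1, Psmb9 and Psmb11, which are among the moved rows, carry values of other probe sets. Those values gave 0.0138, 0.0121 and 0.13 in old MCAO mice and are not differences of the 3 genes. The causes of the other changes were not tested.

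Leaving out 1 mouse gave 0 to 2 members in diabetic MCAO mice (Psmd5 -0.57 to -0.48, lost without diabetic MCAO mouse 2, 4, 6 or 7), 0 to 1 pooled (Psme4 without male MCAO mouse 2 or old MCAO mouse 4, Psmd5 without old MCAO mouse 8) and 0 to 2 in diabetic minus male (Psmd5 -0.72 to -0.62, adjusted p 0.0261 to 0.103), where the Psmd5 call was lost without male MCAO mouse 4, 5, 6, 7 or 8, diabetic MCAO mouse 1, 2, 4, 6 or 7 or diabetic sham mouse 2. All other comparisons stayed at 0. Over all genes, diabetic MCAO calls were 446 in the fit reported, 363 without the block, 26 with the trended robust variance, 56 with 1 surgery, 100 of 4877 with the standard deviation filter, 1404 with the mean filter and 103 to 671 without 1 mouse.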
